A study of Mus musculus with 9 samples.

Results

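Macrophages take up, store, recycle and release iron, and 9 genes of that machinery are described here: Fth1, Ftl1 and Ncoa4 (storage and its turnover), Tfrc, Slc11a1 and Slc11a2 (uptake and movement across membranes), Slc40a1 (export), Lcn2 (binding of bacterial iron carriers) and Ireb2 (iron sensing). The genes were chosen by name for their role in iron handling, with earlier results of these data known. All 9 were among the 22165 gene rows measured. The samples were bone marrow-derived macrophages of the mouse, that is, macrophages that develop in culture out of marrow cells. They came from C57BL/6N mice aged 6 to 16 weeks and all were exposed for 24 h to 100 ng/mL lipopolysaccharide (LPS, from the outer membrane of Gram-negative bacteria). There were 3 groups with 3 libraries each: Irg1-/- cells given LPS and, 4 h later, 1 mM itaconate (KO with itaconate), Irg1-/- cells given LPS (KO), and wild-type cells given LPS (WT). Irg1 (current symbol Acod1) is the gene of the itaconate-producing enzyme, and itaconate is an acid that LPS-treated macrophages accumulate. No group without LPS is among the samples analysed here, and the labels give neither the deleted region of Irg1 nor whether replicates came from separate mice. The p-values therefore cover the variation among these libraries alone, and that variation may be technical.

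As background, cells hold iron in ferritin, a hollow shell of heavy and light chains, and send ferritin to the lysosome with the receptor NCOA4 when iron is needed. Iron enters on transferrin through the transferrin receptor and leaves through ferroportin, the product of Slc40a1. The iron regulatory proteins, of which Ireb2 encodes IRP2, bind a hairpin in messenger RNA called the iron-responsive element when iron is scarce. Binding in the 5′ untranslated region blocks translation of ferritin and ferroportin, and binding in the 3′ untranslated region protects Tfrc messenger RNA from decay. Messenger RNA levels, which are measured here, can therefore include this control for Tfrc and miss the translational part for the ferritins and ferroportin. How much of the Tfrc level comes from that control was not tested. During infection macrophages withhold iron from microbes, and Lcn2 and Slc11a1 are known for that role.

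The hairpins are shown because they set which of the 9 messenger RNAs are known to be controlled at translation and which at decay. A search of the GENCODE M21 transcripts, on the transcript strand, for the letters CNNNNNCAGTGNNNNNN with the 5 bases before and the 5 bases after the 6-base loop able to pair (G-U pairs allowed) found a match in 4 of the 9 genes. The same pattern occurs in 294 of 21877 protein-coding genes (1.34%). In the sequences below, 30 bases each, written 5′ to 3′ in the sense of the transcript with T for U, capitals mark the 6 bases of the loop. Positions are in GRCm38. The 5′ untranslated region matches are in Fth1 at chr19:9982732-9982761 on the plus strand, in Ftl1 at chr7:45459778-45459807 on the minus strand and in Slc40a1 at chr1:45925464-45925493 on the minus strand.
Fth1: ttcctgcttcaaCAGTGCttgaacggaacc
Ftl1: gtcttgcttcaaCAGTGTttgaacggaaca
Slc40a1: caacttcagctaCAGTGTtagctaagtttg
A further 4 matches lie in the 3′ untranslated region of Tfrc on the plus strand, at chr16:32631219-32631248, chr16:32631598-32631627, chr16:32631663-32631692 and chr16:32631710-32631739, listed in that order.
Tfrc element 1: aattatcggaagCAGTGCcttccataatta
Tfrc element 2: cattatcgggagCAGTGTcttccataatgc
Tfrc element 3: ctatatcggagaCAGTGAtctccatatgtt
Tfrc element 4: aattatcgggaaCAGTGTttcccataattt
No match to this pattern was found in the transcripts of Slc11a1, Slc11a2, Lcn2, Ncoa4 or Ireb2, which says only that these letters with this pairing are not there.

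Gene reads per library ranged from 7361671 to 20430359. Irg1 itself was measured first because it checks the labels, and it went against them in 4 libraries. It had 94, 8 and 60716 reads in the libraries labelled KO with itaconate, 154, 170 and 44920 reads where the label is KO, and 94, 117 and 31169 reads where it is WT. The libraries labelled KO with itaconate replicate 3 and KO replicate 3 thus had many Irg1 reads, and those labelled WT replicates 1 and 2 had few. The libraries were also sequenced in 4 pools of barcoded samples, as the labels were read, and the WT libraries and KO replicates 1 and 2 shared pool 1. Pool 2 held KO with itaconate replicate 1 and KO replicate 3, the only pair from both groups in the same pool. A fit with pool as a term therefore sets KO with itaconate against KO on that pair alone, 1 library against 1, and KO replicate 3 is among the libraries that go against their Irg1 label. Groups are named as labelled from here on, so each direction between them is subject to that conflict. The library labelled KO with itaconate replicate 3 also stood apart from the rest. Its mean correlation with the other libraries, over log2 levels of all tested genes, was 0.909, against 0.939 to 0.954 for the other 8. The summed level of the 12 macrophage markers, all of which were detected, was 7100 to 10100 CPM (read counts scaled to a common library total) in KO with itaconate, 9380 to 9780 CPM in KO and 10400 to 12500 CPM in WT. The lowest of these sums, 7100 CPM, belonged to KO with itaconate replicate 3. Summed markers of T, NK or B cells reached at most 0.633 CPM and those of red cell precursors at most 2.96 CPM. The markers of fibroblasts or stroma were present, at 168 to 273 CPM in KO with itaconate, 189 to 223 CPM in KO and 186 to 272 CPM in WT, and their part in the values below was not tested.

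None of the 9 iron handling genes passed the test in any of the 3 comparisons. The edgeR quasi-likelihood test, with Benjamini-Hochberg adjustment over all 10781 tested genes and a threshold of 0.05, called 0 genes (0%) for KO with itaconate against KO, 0 genes (0%) for KO with itaconate against WT and 0 genes (0%) for KO against WT. At an unadjusted edgeR p under 0.05, 2 of the 9 genes stood out for KO with itaconate against KO (Tfrc higher, Lcn2 lower), where 8.3% of all tested genes did, 4.19% higher and 4.11% lower. The same 2 genes did so for KO with itaconate against WT, where 8.89% of all tested genes did, 5.32% higher and 3.56% lower, and both comparisons share the KO with itaconate libraries. For KO against WT it was 0 of the 9 genes, with 3.13% of all tested genes, 2.45% higher and 0.677% lower. DESeq2 called 12, 17 and 1 genes over all tested genes in these comparisons, none of them among the 9, and limma-voom called 0 in each. The 9 genes had a median log2 fold change of -0.06 for KO with itaconate against KO, -0.11 for KO with itaconate against WT and -0.05 for KO against WT, against medians of -0.02, -0.01 and -0.01 over all tested genes. Values above and below 0 numbered 3 and 6 of the 9 for KO with itaconate against KO, where all tested genes divided into 48.4% and 51.6%. They numbered 3 and 6 for KO with itaconate against WT, where the shares were 49.1% and 50.9%, and 4 and 5 for KO against WT, where they were 48.9% and 51.1%. With 3 libraries a group, the median standard error over all tested genes was 0.353 to 0.355 on the log2 scale, so a change of that size in a typical gene was not detectable here. As bulk RNA was measured, fewer cells of a kind and less RNA per cell cannot be told apart.

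**Figure D1:**
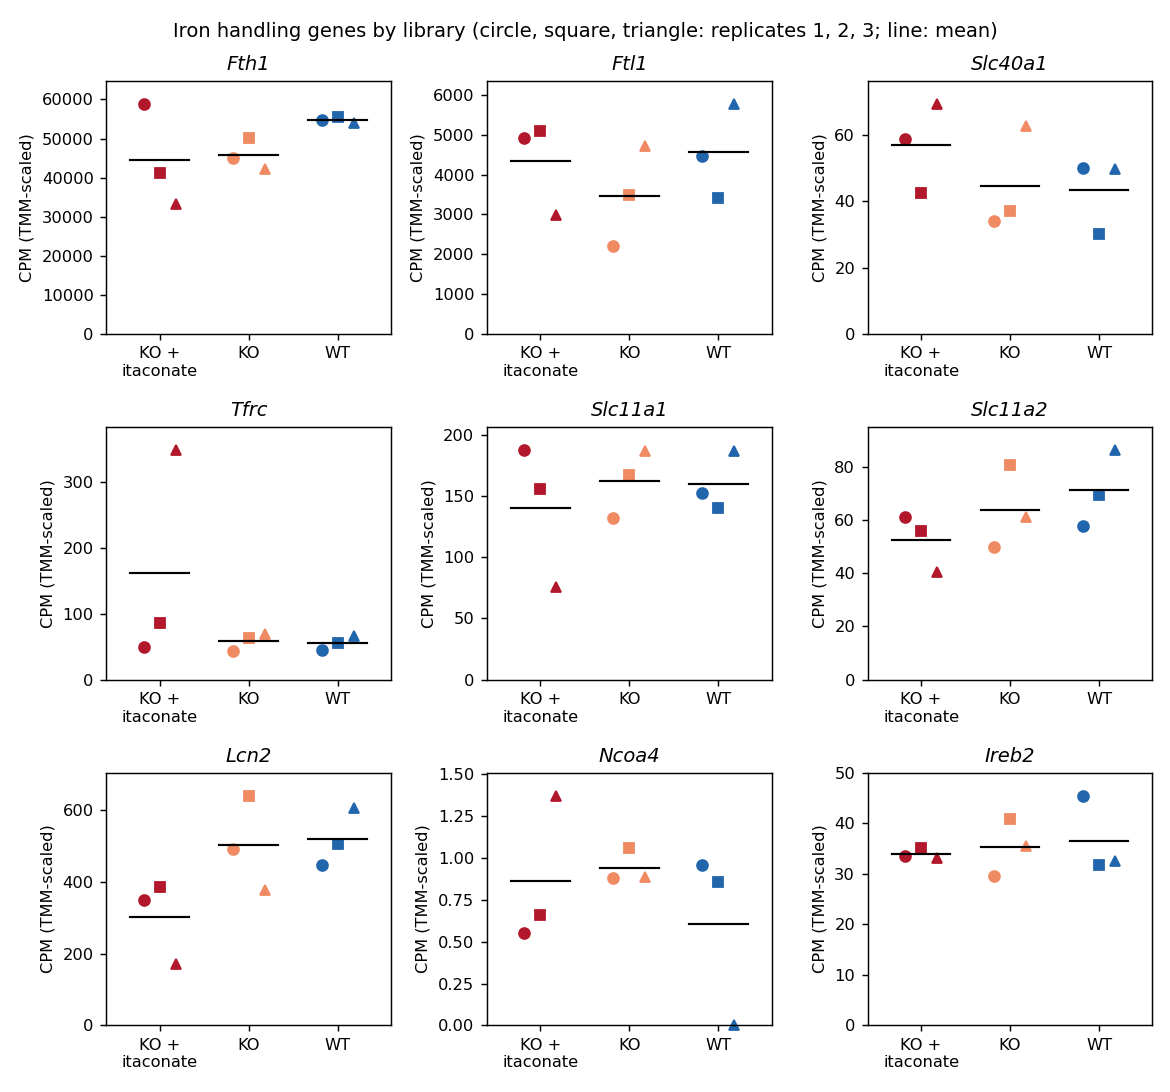
CPM (read counts scaled to a common library total; linear axes from 0) of the 9 iron handling genes in each of the 9 libraries, by labelled group, with the group mean as a line and marker shapes for replicates 1, 2 and 3. Tfrc in KO with itaconate replicate 3, at 348.4 CPM, stands above the other 8 libraries, and Fth1 is nearly level in the 3 WT libraries.

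**Figure D2:**
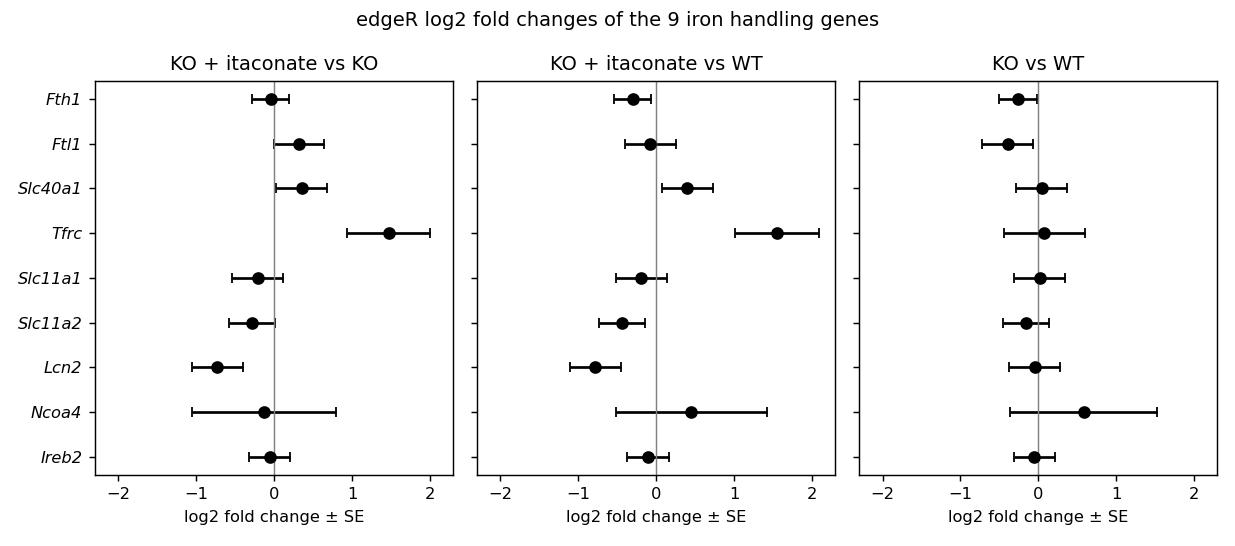
Log2 fold change (x axis) of each gene in the 3 comparisons, from edgeR over all 9 libraries, with bars of 1 standard error. Tfrc at 1.47 and 1.55 and Lcn2 at -0.73 and -0.78 lie farthest from 0 in the comparisons with itaconate, and for KO against WT the value farthest from 0 is that of Ncoa4, at 0.58 with a standard error of 0.92 or more in every comparison.

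Ferritin heavy chain messenger RNA was the most abundant of all. Fth1, whose product oxidises iron as it enters the shell, lies on chromosome 19 from 9980598 to 9985098 (plus strand, GRCm38) and was the gene of most reads in all 9 libraries. It took 5.91%, 3.96% and 3.04% of gene reads in the libraries labelled KO with itaconate, 4.5%, 5.21% and 4.21% in KO and 5.58%, 5.83% and 5.49% in WT. The WT libraries were thus nearly alike and the KO with itaconate libraries the most spread. Scaled levels were 58840, 41050 and 33270 CPM in KO with itaconate, 44900, 50090 and 42250 CPM in KO and 54670, 55630 and 54060 CPM in WT. The means were 44380 ± 13110, 45750 ± 3988 and 54790 ± 788.5 CPM in KO with itaconate, KO and WT (SD, n = 3 each). All 3 libraries labelled KO lay below all 3 labelled WT, and Fth1 was the only 1 of the 9 genes for which these groups did not overlap. Over all tested genes, 5.76% lay wholly lower in KO in the same way. The log2 fold change was -0.26 ± 0.24 (SE) for KO against WT, with an edgeR adjusted p of 0.995, and -0.19 within pool 1 alone. For KO with itaconate it was -0.04 ± 0.24 against KO and -0.30 ± 0.24 against WT, with edgeR adjusted p of 0.976 and 0.710. In the fit with pool as a term the value against KO, from 1 library against 1, was 0.48, and against WT it was 0.27. Both the highest and the lowest Fth1 value of the 9 libraries fell in KO with itaconate, in replicates 1 and 3.

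The evenness of Fth1 among the libraries labelled WT was unusual for a tested gene. Its coefficient of variation there was 1.44%, where the median tested gene had 21.6% and 99.6% of tested genes varied more. In KO it was 8.72%, against a median of 25.5%, and in KO with itaconate it was 29.5%, against a median of 32.2%. Fth1 was therefore evener than the typical gene in WT and KO and close to typical in KO with itaconate. The other genes of the 9 had coefficients of variation of 15.2% to 87.0% in WT, the last being that of Ncoa4 with its few reads. In KO with itaconate the even gene was Ireb2, at 3.31%, where 99.1% of tested genes varied more. Ireb2 had only 363, 321 and 313 reads there, whereas Fth1 had 315174 to 919416 reads a library. Counting error weighs more on genes of few reads, and genes were not compared at equal depth. These ranks therefore do not separate evenness between samples from read depth and from the luck of 3 libraries.

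Ftl1 encodes the ferritin light chain, which helps the iron core form, and lies on chromosome 7 from 45457944 to 45459884 (minus strand). Its levels were 4919, 5092 and 2985 CPM in KO with itaconate, 2217, 3482 and 4724 CPM in KO and 4482, 3426 and 5777 CPM in WT. The lowest and the highest library, KO replicate 1 and WT replicate 3, were in different groups, and all groups overlapped. Means were 4332 ± 1170 CPM in KO with itaconate, 3474 ± 1253 CPM in KO and 4562 ± 1177 CPM in WT (SD, n = 3 each). The log2 fold changes were 0.32 ± 0.32 for KO with itaconate against KO, -0.07 ± 0.32 for KO with itaconate against WT and -0.39 ± 0.32 for KO against WT (edgeR adjusted p of 0.820, 0.958 and 0.995). None of them passed the test, and KO against WT was at -0.66 in pool 1 alone. Without the 4 libraries whose Irg1 reads go against their label it was at -0.996. That setting leaves WT replicate 3, the library of highest Ftl1, as the only WT library. The pseudogene Ftl1-ps1, a near-identical copy, had 1099, 616 and 289 reads in KO with itaconate, 555, 485 and 852 in KO and 894, 687 and 516 in WT, and the counter discarded reads that aligned in several places. Ftl1 is thus measured less certainly than a gene without such a copy.

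The read counts of the ferritin chains did not keep a fixed ratio. Reads of these libraries come from 3′ ends and do not grow with transcript length, so counts of the ferritin chains were set against each other undivided. There were 12.0, 8.06 and 11.1 Fth1 reads per Ftl1 read in KO with itaconate, 20.2, 14.4 and 8.94 in KO and 12.2, 16.2 and 9.36 in WT. The ratio ranged most widely in KO, and the groups overlapped. Ftl1 loses reads that also align to its near-identical copy, and it overlaps Gm22133, a microRNA gene, on the same strand over 109 bases. How many reads were lost in each library is not known. The ratio is thus one of counted reads and does not give the proportion of the chains.

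Ncoa4, the cargo receptor that carries ferritin to the lysosome, lies on chromosome 14 from 32159865 to 32179855 (plus strand) and was close to the limit of detection. It had 6, 6 and 13 reads in KO with itaconate, 18, 14 and 9 in KO and 8, 11 and 0 in WT. As levels these were 0.554, 0.658 and 1.37 CPM in KO with itaconate, 0.879, 1.06 and 0.885 CPM in KO and 0.960, 0.858 and 0 CPM in WT, and all groups overlapped. In the library labelled WT replicate 3, 3 reads correspond to 0.401 CPM, so levels below that were not detectable there. The log2 fold changes, -0.13 ± 0.92 for KO with itaconate against KO, 0.45 ± 0.97 for KO with itaconate against WT and 0.58 ± 0.94 for KO against WT, were smaller than their standard errors (edgeR adjusted p of 0.979, 0.908 and 0.995). With each library left out in turn they ran from -0.64 to 0.11, from -0.08 to 0.87 and from 0.05 to 0.997. Without the 4 libraries whose Irg1 reads go against their label, the WT library left has 0 Ncoa4 reads, so no fold against WT is given for that setting. KO with itaconate against WT was at -0.07 with pool as a term. Ncoa4 passed the count filter in the fit of all 9 libraries and did not pass it when the compared groups were fitted alone in either comparison with itaconate. Whether discarded reads that aligned in several places, or the annotation of its 3′ end, lowered the Ncoa4 counts was not tested. The few reads are therefore a statement about these counts and need not mean little messenger RNA.

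Tfrc, the transferrin receptor, gave the farthest values of the 9 genes, and they rested on 1 library. It lies on chromosome 16 from 32608920 to 32632794 (plus strand), and its 3′ untranslated region holds the 4 matches shown above. Its levels were 48.73, 86.35 and 348.4 CPM in KO with itaconate, 42.83, 63.09 and 68.55 CPM in KO and 44.38, 55.33 and 65.38 CPM in WT. The library labelled KO with itaconate replicate 3 was 4.03-fold above the next highest library and 5.88-fold above the median of the other 8. Of 10781 tested genes, 19 (0.176%) stood at least as far above the next library there. KO with itaconate replicate 1, by contrast, lay within the KO and WT values, and replicate 2 was the second highest of the 9. The means were 161.2 ± 163.2 CPM in KO with itaconate, 58.16 ± 13.55 CPM in KO and 55.03 ± 10.5 CPM in WT (SD, n = 3 each).

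The Tfrc log2 fold change was 1.47 ± 0.53 for KO with itaconate against KO (edgeR unadjusted p of 0.0146, adjusted p of 0.520) and 1.55 ± 0.54 against WT (unadjusted p of 0.0111, adjusted p of 0.518). Without KO with itaconate replicate 3 these were 0.21 and 0.30. Without all 4 libraries whose Irg1 reads go against their label they were 0.32 and 0.03, the second against WT replicate 3 alone. With pool as a term the value against KO turned to -0.49, which rests on the pair in pool 2, KO with itaconate replicate 1 at 48.73 CPM and KO replicate 3 at 68.55 CPM. No pool held both KO with itaconate and WT, so there is no value within a pool between them. The fit with pool as a term reaches WT through the KO libraries of both pools, and there Tfrc turned to -0.55 (edgeR adjusted p of 0.998), an alternative chosen after seeing the data. Fitted without the filter on low counts, Tfrc passed the test for KO with itaconate against WT at 1.53 with an edgeR adjusted p of 0.0364, the lowest over 18 alternatives, where the highest was 1.0. Replicate 3 was also the library with the lowest macrophage marker sum (7100 CPM), the most Irg1 reads of its group (60716) and a pool of its own. The part of these in the Tfrc value was not tested. For KO against WT, Tfrc differed by 0.08 ± 0.52 (edgeR adjusted p of 0.998).

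Tfrc reads were also set against Fth1 reads of the same library. The ratio reuses the Tfrc counts, whose levels spanned 8.13-fold where those of Fth1 spanned 1.77-fold, and adds no separate evidence. There were 0.828, 2.10 and 10.5 Tfrc reads per 1000 Fth1 reads in KO with itaconate, 0.954, 1.26 and 1.62 in KO and 0.812, 0.995 and 1.21 in WT. Replicates 2 and 3 of KO with itaconate held the highest values of the 9 libraries, and replicate 1 held the second lowest.

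**Figure D3:**
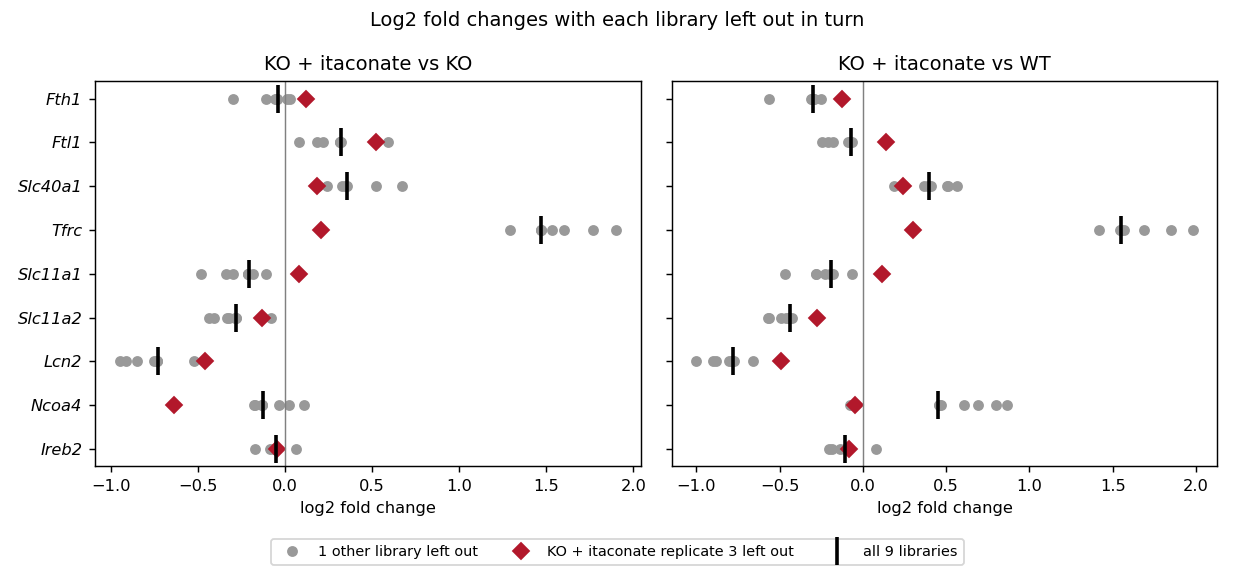
Log2 fold changes (x axis) of the 9 genes for KO with itaconate against KO and against WT, recomputed with each library left out in turn: grey points for the other libraries, red diamonds for KO with itaconate replicate 3, black ticks for all 9 libraries. For Tfrc the red diamonds lie at 0.21 and 0.30 and the ticks at 1.47 and 1.55.

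Slc11a2 encodes DMT1, which carries ferrous iron out of the endosome after transferrin uptake, and lies on chromosome 15 from 100387898 to 100425072 (minus strand). Its levels were 61.1, 55.99 and 40.53 CPM in KO with itaconate, 49.91, 80.7 and 61.37 CPM in KO and 57.93, 69.53 and 86.5 CPM in WT. The group means were 52.54 ± 10.71 CPM in KO with itaconate, 63.99 ± 15.56 CPM in KO and 71.32 ± 14.37 CPM in WT (SD, n = 3 each), and all groups overlapped. The log2 fold changes were -0.28 ± 0.29 for KO with itaconate against KO, -0.44 ± 0.29 for KO with itaconate against WT and -0.16 ± 0.29 for KO against WT (edgeR adjusted p of 0.826, 0.667 and 0.995). With pool as a term, KO with itaconate was at -0.006 against KO, from 1 library against 1, and at -0.134 against WT. Its transcripts, some of which are known to carry an iron-responsive element and others not, cannot be told apart in counts per gene. Slc11a2 overlaps Gm5475 on the opposite strand over 2926 bases away from its 3′ end, and whether the counting used strand is not given in the sources used here.

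Slc11a1 encodes NRAMP1, a metal transporter of the phagosome membrane, whose C57BL/6 allele is known for its loss of function. It lies on chromosome 1 from 74375195 to 74386062 (plus strand). Its levels were 187.7, 156.1 and 75.89 CPM in KO with itaconate, 132, 167.4 and 186.8 CPM in KO and 152.8, 140 and 187 CPM in WT. A single library, KO with itaconate replicate 3, stood below the rest, at 0.469 times the median of the other 8. The means were 139.9 ± 57.66 CPM in KO with itaconate, 162.1 ± 27.78 CPM in KO and 159.9 ± 24.32 CPM in WT (SD, n = 3 each). The log2 fold changes were -0.21 ± 0.33, -0.19 ± 0.33 and 0.02 ± 0.33 for KO with itaconate against KO, KO with itaconate against WT and KO against WT (edgeR adjusted p of 0.884, 0.874 and 0.999). Without KO with itaconate replicate 3 the first and second of these had the opposite sign, at 0.08 and 0.11.

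Slc40a1 encodes ferroportin, the only iron exporter known in mammals, and lies on chromosome 1 from 45908068 to 45926523 (minus strand). Its levels were 58.98, 42.63 and 69.45 CPM in KO with itaconate, 34.09, 37.25 and 62.75 CPM in KO and 50.14, 30.28 and 49.73 CPM in WT. The highest value again belonged to KO with itaconate replicate 3, and all groups overlapped. The means were 57.02 ± 13.52 CPM in KO with itaconate, 44.7 ± 15.72 CPM in KO and 43.38 ± 11.35 CPM in WT (SD, n = 3 each). Its log2 fold change was 0.35 ± 0.33 for KO with itaconate against KO, 0.40 ± 0.33 against WT and 0.04 ± 0.33 for KO against WT (edgeR adjusted p of 0.797, 0.721 and 0.998). The KO and KO with itaconate libraries that share a pool, KO with itaconate replicate 1 and KO replicate 3, had 58.98 and 62.75 CPM. With pool as a term the value against KO, from that pair alone, was -0.09, and against WT it was -0.37.

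Lcn2, or lipocalin 2, binds the siderophores with which bacteria collect iron, is a well-known LPS-induced gene and lies on chromosome 2 from 32384633 to 32388252 (minus strand). It had 348.9, 386.9 and 171.6 CPM in KO with itaconate, 491.6, 640.4 and 376.6 CPM in KO and 446.8, 506.8 and 606.4 CPM in WT. All 3 libraries labelled KO with itaconate lay below all 3 labelled WT, as 7.26% of all tested genes did, whereas KO replicate 3 lay below KO with itaconate replicate 2. The means were 302.5 ± 114.9 CPM in KO with itaconate, 502.9 ± 132.3 CPM in KO and 520 ± 80.63 CPM in WT (SD, n = 3 each). The log2 fold change was -0.73 ± 0.33 for KO with itaconate against KO (edgeR unadjusted p of 0.0409, adjusted p of 0.594) and -0.78 ± 0.33 against WT (unadjusted p of 0.0309, adjusted p of 0.545). For KO against WT it was -0.05 ± 0.33 (edgeR adjusted p of 0.998).

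The Lcn2 values for KO with itaconate varied in size between alternatives. Without KO with itaconate replicate 3, the lowest library, they were -0.46 against KO and -0.49 against WT. Without the 4 libraries whose Irg1 reads contradict the label they were -0.65 and -0.73, the second against WT replicate 3 alone. With pool as a term they were -0.11 against KO, from 1 library against 1, and 0.012 against WT, reached through the KO libraries. Lcn2 is also a granule gene of neutrophils, and their 12 markers summed to 292 to 402 CPM in KO with itaconate, 361 to 424 CPM in KO and 369 to 435 CPM in WT. Mpo and Ly6g, markers of neutrophils and their precursors, stayed at or below 0.295 CPM in every library. S100a8, which macrophages also express, had 153, 124 and 36.5 CPM in KO with itaconate, 113, 147 and 137 CPM in KO and 153, 164 and 175 CPM in WT. Mmp8, a neutrophil collagenase, had 94.1, 71.4 and 129 CPM in KO with itaconate, 64.8, 80.9 and 58.1 CPM in KO and 48.9, 74.4 and 73.9 CPM in WT. Csf3r, the receptor of granulocyte colony-stimulating factor, had 85.6, 69.8 and 78.9 CPM in KO with itaconate, 139, 130 and 85.3 CPM in KO and 132, 119 and 40.4 CPM in WT. The replicate with the lowest Lcn2 and S100a8, KO with itaconate replicate 3, thus had the highest Mmp8. The part of these markers in the Lcn2 value was not tested.

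Ireb2, which encodes IRP2, was the evenest of the 9 genes across the libraries. It lies on chromosome 9 from 54863789 to 54912530 (plus strand) and had 33.5, 35.17 and 33.04 CPM in KO with itaconate, 29.64, 40.8 and 35.41 CPM in KO and 45.46, 31.68 and 32.49 CPM in WT. Its highest library was 1.53-fold above its lowest, whereas Fth1 spanned 1.77-fold and Tfrc 8.13-fold. Group means were 33.9 ± 1.124 CPM in KO with itaconate, 35.28 ± 5.581 CPM in KO and 36.54 ± 7.733 CPM in WT (SD, n = 3 each). The log2 fold changes were -0.06 ± 0.27, -0.11 ± 0.27 and -0.05 ± 0.27 for KO with itaconate against KO, KO with itaconate against WT and KO against WT (edgeR adjusted p of 0.970, 0.920 and 0.998). IRP2 is regulated mainly by protein breakdown, which counts of messenger RNA do not show.

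Across the 9 genes, KO with itaconate replicate 3 held more extremes than any other library. It had the highest value of all 9 libraries for Slc40a1, Tfrc and Ncoa4 and the lowest for Fth1, Slc11a1, Slc11a2 and Lcn2, so it was at an extreme for 7 of the 9 genes. Over all tested genes it was at an extreme for 45.8%, and the other libraries for 12.8% to 28.5%. Next in number were KO replicate 1 and WT replicate 3, each at an extreme for 3 of the 9 genes.

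Genes whose log2 CPM followed each member most closely over the 9 libraries were listed among 7287 others with a mean of at least 10 CPM (7288 for Ncoa4). These correlations describe the libraries, which share depth and processing within each, and carry no test. Fth1 was followed most closely by Smdt1 (Pearson r of 0.963), which encodes a subunit of the mitochondrial calcium uniporter, and by Tradd (0.962), an adaptor of tumour necrosis factor receptor signalling. For Ftl1 they were Tmem9b (0.983) and Oasl2 (0.979), the second of which is interferon-induced, and for Slc40a1 they were Rsad2 (0.966), an interferon-induced antiviral gene, and Zdhhc18 (0.944). Slc11a2 went with Clec4e (0.969), a receptor for mycobacterial glycolipid, and Stom (0.952). These stayed at 0.925 or above without KO with itaconate replicate 3. Tfrc went with Agps (0.980) and Hexim1 (0.967), with 0.856 and 0.700 in the absence of that library, in which Tfrc was highest. Slc11a1 went with Wiz (0.967) and Fiz1 (0.966), at 0.863 and 0.868 without it. Lcn2 went with Dcakd (0.976) and mt-Cytb (0.973), Ncoa4 with Nkap (0.939) and Haus6 (0.933), and Ireb2 with Lmo2 (0.921) and Actr1a (0.917).

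The other genes of iron and heme handling were taken as 80 genes in 7 lists, of which 79 were in the table and 63 passed the count filter. None passed the edgeR test in any comparison. At an unadjusted p under 0.05, 3 were higher and 4 lower for KO with itaconate against KO, where 4.19% and 4.11% of all tested genes were. It was 2 higher and 3 lower for KO with itaconate against WT, beside 5.32% and 3.56% of all tested genes, and 1 higher and 0 lower for KO against WT, beside 2.45% and 0.677%. These were Hmox1, Fech, Glrx5, Nfe2l2, Hp, Flvcr1 and Bola3 in the first comparison, Slc39a14, Cpox, Hp, Isca2 and Ciao1 in the second and Nfe2l2 in the third. The median log2 fold changes of the 63 genes were 0.04, 0.08 and -0.07 in that order, against -0.02, -0.01 and -0.01 over all tested genes. The genes below the filter included Hamp, the hormone hepcidin that lowers ferroportin, at most 0.831 CPM, Cd163, a receptor for hemoglobin bound to haptoglobin, at most 1.69 CPM, and Steap4, at 0 reads in every library, which allows up to 0.147 to 0.401 CPM.

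Among iron sensors and regulators (6 genes, all tested), Nfe2l2 was the gene of smallest p. It encodes NRF2, a transcription factor that activates ferritin, ferroportin and heme oxygenase genes. It had 152.5, 140.8 and 239.2 CPM in KO with itaconate, 363.5, 247.5 and 405.2 CPM in KO and 202.8, 170 and 162.2 CPM in WT. All 3 libraries labelled KO lay above all the others. Of all tested genes, 4.85% lay wholly higher in KO than in WT, and 5.29% wholly lower in KO with itaconate than in KO. The share of genes with both was not counted. The log2 fold change was -0.93 ± 0.30 for KO with itaconate against KO (edgeR unadjusted p of 0.00697, adjusted p of 0.507) and 0.93 ± 0.30 for KO against WT (unadjusted p of 0.00726, adjusted p of 0.995), and these comparisons share the KO libraries. For KO with itaconate against WT it was -0.01 ± 0.30. With each library left out in turn, the first stayed between -1.22 and -0.79 and the second between 0.80 and 1.11. Without the 4 libraries whose Irg1 reads go against their label they were -1.08 and 0.93, the second against WT replicate 3 alone. With pool as a term the second was 0.78, and the first, on 1 library against 1, was -1.41. Aco1, which encodes IRP1, had -0.27 ± 0.27, -0.28 ± 0.27 and -0.01 ± 0.27, and Fbxl5, which marks the iron regulatory proteins for breakdown, had 0.30 ± 0.29, 0.43 ± 0.29 and 0.13 ± 0.29 for KO with itaconate against KO, KO with itaconate against WT and KO against WT. The second of the Fbxl5 values was -0.29 with pool as a term.

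In heme handling (10 of 13 genes tested), Hp and Flvcr1 had the smallest p for KO with itaconate against KO. Hp, or haptoglobin, which binds free hemoglobin, had 65.34, 37.58 and 22.06 CPM in KO with itaconate, 98.5, 103.8 and 78.68 CPM in KO and 59.85, 130 and 79.01 CPM in WT. Its KO with itaconate libraries lay below all 3 labelled KO, as 5.29% of all tested genes did. The Hp log2 fold change was -1.17 ± 0.39 against KO and -1.10 ± 0.39 against WT (edgeR adjusted p of 0.507 and 0.522). The fit with pool as a term gave -0.095 against WT and, from the pair in pool 2 alone, -0.27 against KO. Flvcr1, a heme exporter, differed by -0.97 ± 0.35 against KO (edgeR adjusted p of 0.523), which turned to 0.27 for that pair. Spic, the transcription factor of red pulp macrophages that recycle iron, differed by 0.69 ± 0.34 against WT, and by 0.28 without KO with itaconate replicate 3 and -0.60 with pool as a term. Hmox1, heme oxygenase 1, which frees iron from heme, was singled out after its values were seen. It had 363.1, 431.6 and 424 CPM in KO with itaconate, 165.8, 238.5 and 318.1 CPM in KO and 191.1, 261.3 and 378.5 CPM in WT. The KO with itaconate libraries lay above all 3 labelled KO, as 5.57% of all tested genes did, and overlapped WT. The log2 fold change was 0.76 ± 0.32 against KO (edgeR adjusted p of 0.568), 0.55 ± 0.32 against WT and -0.20 ± 0.31 for KO against WT. In the pool 2 pair, KO with itaconate replicate 1 had 363.1 CPM and KO replicate 3 had 318.1 CPM.

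Of the uptake genes 8 of 13 were tested. Positive values were found in 6 of the 8 for KO with itaconate against KO, 6 for KO with itaconate against WT and 1 for KO against WT. Over all tested genes 48.4%, 49.1% and 48.9% had positive values in these comparisons. None of the 8 uptake genes passed the edgeR test. Slc39a14, a transporter of iron not bound to transferrin, had 30.27, 31.23 and 58.79 CPM in KO with itaconate, 69.64, 19.87 and 21.44 CPM in KO and 13.07, 24.19 and 19.39 CPM in WT. It was 1.08 ± 0.46 for KO with itaconate against WT (edgeR adjusted p of 0.547), where the groups did not overlap, and 0.71 without KO with itaconate replicate 3. For KO against WT it was 0.97 ± 0.46, and 0.13 without KO replicate 1, the high library. Steap3, the ferric reductase of the transferrin endosome, differed by 0.59 ± 0.33 for KO with itaconate against KO. Steap2, a related reductase, had the value farthest from 0 of the uptake genes there, 1.78 ± 1.28, on 15, 19 and 0 reads in KO with itaconate and 3, 11 and 0 reads in KO. Of the export and hormone genes 2 of 9 were tested. Cp, ceruloplasmin, which oxidises exported iron, differed by -0.33 ± 0.28 for KO with itaconate against KO and 0.31 ± 0.28 for KO against WT. The iron chaperone Pcbp1 (4 of 5 storage genes tested) had 174.3, 140.8 and 142.8 CPM in KO with itaconate and 89.12, 100.4 and 122.3 CPM in WT, groups that did not overlap, with a log2 fold change of 0.56 ± 0.33 (edgeR adjusted p of 0.626), and -0.078 with pool as a term.

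Heme synthesis and iron-sulfur cluster genes had values of either sign. Of the 8 tested heme synthesis genes, 7 had positive values for KO with itaconate against KO, with a median of 0.26, where 48.4% of all tested genes did. Fech, which inserts iron into the porphyrin ring, differed by 0.82 ± 0.33 (edgeR adjusted p of 0.547). Cpox, an earlier step of that pathway, differed by 0.65 ± 0.27 for KO with itaconate against WT and 0.44 ± 0.27 for KO against WT, in both cases with groups that did not overlap (edgeR adjusted p of 0.547 and 0.995). Alas1, the rate-limiting step, differed by 0.41 ± 0.42 against KO, and by -0.24 without KO with itaconate replicate 3. Of the 25 cluster and mitochondrial iron genes, all tested, Bola3 had -1.38 ± 0.48 and Glrx5 0.71 ± 0.31 for KO with itaconate against KO (edgeR adjusted p of 0.514 and 0.590), and -0.18 and 0.38 in the pool 2 pair. Isca2 had -0.88 ± 0.32 and Ciao1 -0.72 ± 0.30 for KO with itaconate against WT (edgeR adjusted p of 0.524 and 0.547). With pool as a term Isca2 was at -0.717 and Ciao1 at -0.044. Without the 4 libraries whose Irg1 reads go against their label, Isca2 was at -0.718 and Ciao1 at -0.312. Both values are against WT replicate 3 alone. The named genes act in cluster assembly or transfer and differed in sign. In each of these 4 cases the compared groups did not overlap.

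Groups without overlap were counted over the 63 tested genes of the wider lists, and the genes in these counts were picked out after their values were seen. For KO with itaconate against KO, 4 genes lay wholly higher, among them Hmox1 and Glrx5, and 4 wholly lower (Nfe2l2, Abcg2, Hp and Bola3), where 5.57% and 5.29% of all tested genes did. For KO with itaconate against WT, 4 lay wholly higher (Slc39a14, Pcbp1, Spic and Cpox) and 7 wholly lower, among them Hfe, Isca2 and Ciao1, where 7.29% and 7.26% of all tested genes did. For KO against WT, 3 lay wholly higher (Nfe2l2, Uros and Cpox) and 2 wholly lower (Hfe and Ciao1), where 4.85% and 5.76% of all tested genes did. The 63 genes hold 6.35% and 6.35%, 6.35% and 11.1%, and 4.76% and 3.17% in these counts.

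**Figure D4:**
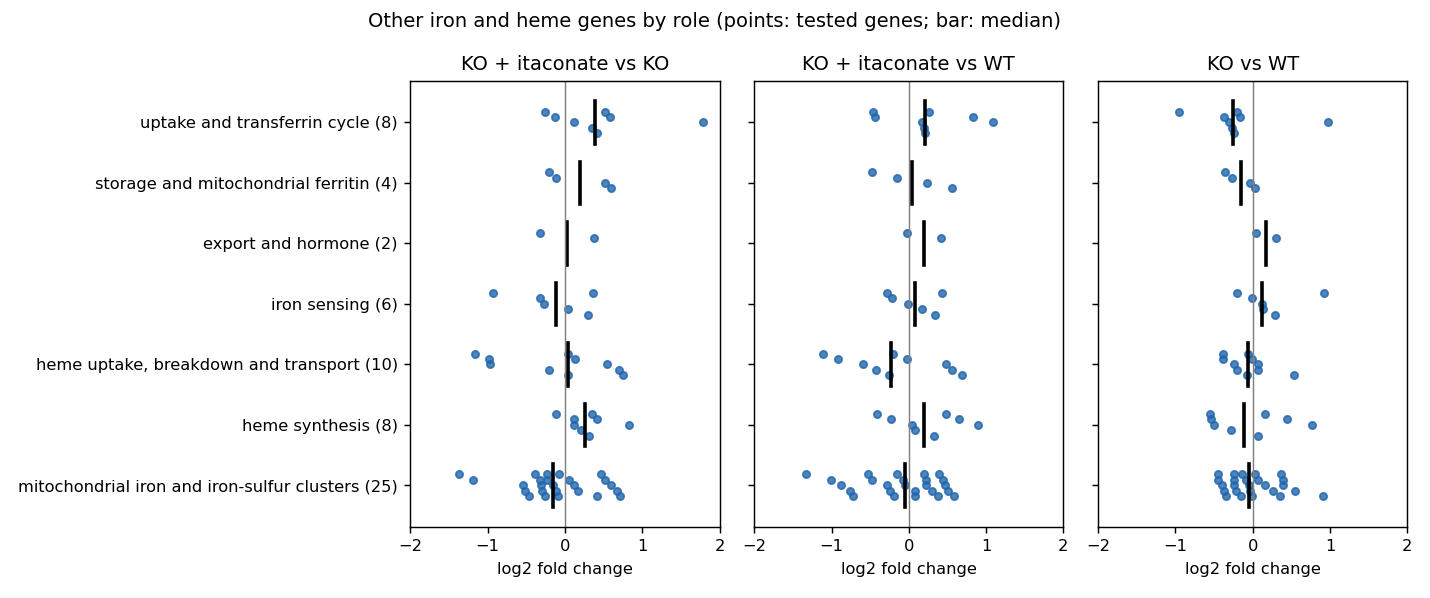
Log2 fold changes (edgeR, all 9 libraries) of the 63 tested genes of the wider iron lists, by list, in the 3 comparisons. Nfe2l2 lies at -0.93 for KO with itaconate against KO and at 0.93 for KO against WT.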

How the data were processed

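Oligo-dT beads isolated the messenger RNA, barcoded oligo-dT primers started the copying, and samples were then pooled and amplified into strand-specific libraries, per the labels' protocols. Reads therefore lie near 3′ ends, and no molecular identifier is mentioned, so amplified copies cannot be collapsed. Whole-number read counts per gene were deposited by the authors. Per the submitters' processing notes, STAR and HTSeq were used on mm10. Tool versions and the annotation release are not given in the sources used here. That table held 22165 gene rows, 21745 of them matched to a symbol, and 5 summary rows, which were kept apart. Reads outside genes made up 23.1% to 33.7% of a library's reads, reads aligned in several places 17.1% to 20.0%, and reads assignable to more than 1 gene 0.275% to 0.441%.

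Gene reads per library were 7361671 to 20430359, at which 3 reads are 0.147 to 0.408 CPM before TMM scaling. On the TMM scale of the text they are 0.147 to 0.401 CPM. Such limits cover counting error only. Counts of all 9 libraries entered 1 edgeR 4.0.16 quasi-likelihood fit (R 4.3.3, two-sided) with group as the only term, using TMM factors and, as a filter on low genes, filterByExpr (minimum count 10). It kept 10781 genes. The Benjamini-Hochberg adjustment was done within each of 3 comparisons, with a threshold of 0.05. CPM in the text are TMM-scaled, ± is the SD over 3 libraries for levels, and the standard error of a log2 fold change is its size divided by the square root of F. Per the description labels a number precedes the barcode, read here as the pool: WT replicates 1 to 3 and KO replicates 1 and 2 share pool 1, KO replicate 3 and KO with itaconate replicate 1 share pool 2, and KO with itaconate replicates 2 and 3 are alone in pools 3 and 4. No pool holds both KO with itaconate and WT, so no value within a pool exists for them. The fit with pool as a term links them through KO libraries, and it was added for that comparison after seeing the data.

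All 9 iron handling genes were named. From the wider lists the rule took called genes and the 2 of smallest p per list and comparison, of which the text gives the main ones. The members and lists were chosen with earlier results of these data known. Hjv was not analysed here. Alternatives were DESeq2 1.42.0, limma-voom 3.58.1, other scalings, no count filter, a replicate block, the compared groups alone, pool 1 alone, pool as a term, each library left out, and the 4 libraries whose Irg1 reads go against their label left out. The edgeR script was tested on simulated counts. Positions and transcript sequences are from GENCODE M21 on GRCm38.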

Additional observations from a re-analysis of the deposited data

How the results depend on the processing

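Of 243 log2 fold changes of the 9 iron handling genes with 1 library left out, 26 changed sign and none passed the edgeR threshold. Under the other settings 25 of 250 changed sign and 1 passed. For the named genes of the wider lists it was 9 of 378 and 11 of 391, and none passed. The cause of these changes was not tested. DESeq2 called 12 genes for KO with itaconate against KO, 17 for KO with itaconate against WT and 1 for KO against WT. Without the count filter, edgeR called 80 and 92 genes in the comparisons with itaconate, and 1 of the 9 genes (Tfrc) for KO with itaconate against WT. Without the 4 libraries whose Irg1 reads go against their label it called 217, 1 and 2, with WT a lone library assumed to vary like the other groups. With 1 library left out it called 0 to 6 genes for KO with itaconate against KO and 0 to 4 against WT, the 6 and the 4 without KO with itaconate replicate 1. Unscaled library totals gave Slc11a1 a value of 0 for KO against WT.

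With those 4 libraries left out, values changed sign for KO against WT in Slc40a1 (-0.46), Tfrc (-0.28), Slc11a1 (-0.30), Ireb2 (0.14) and Steap3 (0.26), for KO with itaconate against KO in Fth1 (0.049) and Slc11a1 (0.17), and for KO with itaconate against WT in Ireb2 (0.074) and Fbxl5 (-0.074). In pool 1 alone, KO against WT changed sign in Slc40a1 (-0.26), Tfrc (-0.035), Slc11a1 (-0.074) and Lcn2 (0.14). With pool as a term it did so in Slc40a1 (-0.28), Tfrc (-0.056), Slc11a1 (-0.095) and Lcn2 (0.12), and KO with itaconate against KO in Fth1 (0.48), Slc40a1 (-0.09), Tfrc (-0.49), Slc11a1 (0.007), Flvcr1 (0.27) and Alas1 (-1.02). The values against KO rest on KO with itaconate replicate 1 against KO replicate 3 alone, a library that goes against its Irg1 label. The same fit for KO with itaconate against WT, an alternative chosen after seeing the data, links the groups through KO libraries and called 0 genes (475 at an unadjusted p under 0.05). Signs changed there in Fth1 (0.27), Slc40a1 (-0.37), Tfrc (-0.55), Lcn2 (0.012), Ncoa4 (-0.07), Lrp1 (0.26), Pcbp1 (-0.078), Atg7 (0.11), Cp (0.035), Fbxl5 (-0.29) and Spic (-0.60).

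With 1 library left out, sign changes for KO with itaconate against KO were in Fth1 (-0.30 to 0.12), Slc11a1 (-0.49 to 0.078), Ncoa4 (-0.64 to 0.11), Ireb2 (-0.17 to 0.06), Ltf (-0.35 to 0.81) and Alas1 (-0.24 to 0.90). For KO with itaconate against WT they were in Ftl1 (-0.25 to 0.14), Slc11a1 (-0.47 to 0.11), Ncoa4 (-0.08 to 0.87), Ireb2 (-0.20 to 0.078), Cp (-0.12 to 0.15) and Ltf (-0.30 to 0.87). For KO against WT they were in Slc40a1 (-0.26 to 0.21), Tfrc (-0.053 to 0.26), Slc11a1 (-0.073 to 0.15), Slc11a2 (-0.36 to 0.005), Lcn2 (-0.26 to 0.15), Ireb2 (-0.17 to 0.14), Ltf (-0.24 to 0.21) and Slc25a37 (-0.15 to 0.88).

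Correlations of same-numbered deviations from the group means ran from -0.159 to 0.245. With 3 libraries a group, which also differ in pool and in Irg1 reads, they cannot show whether replicate numbers pair the samples. With a replicate block edgeR called 0 genes in each comparison, as without it, Tfrc was at 1.09 against KO and 1.16 against WT for KO with itaconate, and Ltf turned to -0.022 for KO against WT. The depth of 3 libraries a group limits all of these values, and Ncoa4, with 0 to 18 reads a library, most of the 9.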
